A study of Mus musculus with 10 samples.

Results

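The miR-30 family was followed here in small extracellular vesicles (sEVs, membrane particles released by cells) of mouse heart. Its members were the 5 mature 5p arms mmu-miR-30a-5p, mmu-miR-30b-5p, mmu-miR-30c-5p, mmu-miR-30d-5p and mmu-miR-30e-5p, taken by name from 733 mature miRNAs in the deposited table. All 5 passed the filter on low counts, which kept 177 miRNAs. The 6 3p arms of the family served for arm ratios, and 3 of them passed the filter. Small RNA was sequenced for 5 HFD plus L-NAME and 5 control libraries. The mice of the first group were male C57BL/6J mice, 8 weeks old at the start, which received for 12 weeks a diet with 60% fat and drinking water holding L-NAME, a nitric oxide synthase inhibitor, at 0.5 g/L. This regimen models heart failure in which the ejection fraction is preserved. The control mice were males on standard chow. The vesicles came from whole heart digested with collagenase, so any cell of the heart could have released them, and fewer vesicles of a cell type cannot be told apart from less miRNA per vesicle. The title of the series concerns vesicles secreted by cardiomyocytes in this disease.

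A miRNA guides the Argonaute protein to messenger RNAs that pair with its seed, the bases near its 5′ end, and those messages are then repressed. Precursor hairpins carry a 5p and a 3p arm, and usually 1 arm is kept as the guide while the other is degraded. The miR-30 members share 1 seed and so a common set of potential targets. In the heart the family is abundant in cardiomyocytes and is known to repress Ctgf (Ccn2), a matrix-promoting growth factor, and in cell studies it also represses the autophagy gene Becn1.

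Mature sequences were found in RefSeq (GRCm38.p6) for 3 of the 5 members and 4 of the 6 3p arms. The 3 members and miR-384-5p are printed to show their common seed. The 3p arms of miR-30a and miR-30e, which have a seed of their own, are printed to show how little separates these mature arms. Capitals mark bases 2 to 8 of each sequence, its seed.
mmu-miR-30a-5p: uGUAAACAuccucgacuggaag
mmu-miR-30e-5p: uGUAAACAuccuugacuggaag
mmu-miR-30c-5p: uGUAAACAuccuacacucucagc
mmu-miR-384-5p: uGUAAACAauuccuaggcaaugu
mmu-miR-30a-3p: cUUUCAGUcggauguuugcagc
mmu-miR-30e-3p: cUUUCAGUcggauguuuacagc
Counted from the 5′ end, miR-30a-5p and miR-30e-5p differed by a single substitution, C13U, and shared their first 12 bases. Their 3p arms also differed by a single substitution, G18A. From miR-30a-5p to miR-30c-5p there were 5 substitutions, C13A, G14C, G18C, G19U and A20C, all outside the seed. A further mature miRNA with this seed in the RefSeq table was miR-384-5p from chromosome X, which held 19 counts over all 10 libraries and was not tested.

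The precursors lie in 3 places of the mouse genome (GRCm38, GENCODE M21). On chromosome 15, Mir30b (68337415 to 68337510, minus strand, in no annotated host) and Mir30d (68341208 to 68341289, minus strand, in an exon of the lincRNA Gm20732) are 3697 bases apart. On chromosome 4, Mir30c-1 (120769534 to 120769622) and Mir30e (120772606 to 120772697) are 2983 bases apart on the minus strand, in introns of Nfyc, which encodes a subunit of the transcription factor NF-Y. On chromosome 1, Mir30a (23272269 to 23272339, plus strand, in no annotated host) and Mir30c-2 (23291701 to 23291784, plus strand, in an exon of the lincRNA Gm27028) are 19361 bases apart. The mature miR-30c-5p sequence is the same from both of its loci, so its counts cannot be divided between chromosomes 1 and 4.

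The libraries held 250807 to 338530 miRNA counts in HFD plus L-NAME and 238434 to 420828 in control, and the limit that a count of 0 allows lay between 7.13 and 12.6 CPM. The heart origin was checked with cardiomyocyte miRNAs, which took 31.1% to 46.7% of miRNA counts in HFD plus L-NAME libraries and 26.1% to 33.8% in control libraries. Most of this was the muscle miRNA miR-1a-3p, at 27.4% to 43.7% in HFD plus L-NAME and 21.1% to 29.8% in control. The other tested markers of this list went both ways. Log2 fold changes were 0.63 for miR-208a-3p and 0.24 for miR-133b-3p, but -0.19 for miR-133a-3p and -0.60 for miR-499-5p, whose groups did not overlap. In the HFD plus L-NAME libraries endothelial miRNAs took 3.999% to 7.20%, smooth muscle and pericyte miRNAs 2.92% to 4.35%, red blood cell miRNAs 0.916% to 2.85%, fibroblast miRNAs 0.317% to 1.33%, leukocyte miRNAs 0.294% to 0.633% and liver miRNAs 0.0433% to 0.0562%. In the control libraries endothelial miRNAs took 6.06% to 7.77%, smooth muscle and pericyte miRNAs 4.37% to 7.03%, red blood cell miRNAs 1.63% to 5.55%, fibroblast miRNAs 0.179% to 0.644%, leukocyte miRNAs 0.421% to 0.502% and liver miRNAs 0.0447% to 0.0863%. Of the marker miRNAs 0 were at 0 throughout, and 0 of those tested were called. The part of these cell types in the miR-30 values was not tested.

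The family as a whole took about the same share of vesicle miRNA in both groups. It held 1.89% ± 0.283 of miRNA counts in HFD plus L-NAME and 1.94% ± 0.303 in control (SD, n = 5 each), a difference of -0.0475 percentage points. By library the share was 2.26%, 1.52%, 1.96%, 1.72% and 2.0% in HFD plus L-NAME 1 to 5. In control libraries 1 to 5 it was 2.38%, 2.04%, 1.93%, 1.56% and 1.78%. The groups overlapped over nearly their whole range, and counting error was much smaller than the spread between libraries, for example an exact binomial 95% interval of 2.20% to 2.31% around the 2.26% of HFD plus L-NAME 1. As a sum of normalized levels the family stood at 18894 ± 1481 CPM in HFD plus L-NAME and 19263 ± 2914 CPM in control (SD, n = 5 each), and counted as 1 miRNA it would have ranked 14 by abundance. CPM here means miRNA counts scaled to a common library size, with TMM factors that adjust for composition.

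The denominator moved this comparison. The muscle miRNA miR-1a-3p took 27.4% to 43.7% of counts in HFD plus L-NAME libraries and 21.1% to 29.8% in control libraries. Without it in the total, the family share was 2.88% ± 0.502 in HFD plus L-NAME and 2.58% ± 0.428 in control, now higher by 0.301 points. Against the read totals recovered from the second deposited value, assumed to be RPM, it was 0.0225% ± 0.00411 in HFD plus L-NAME and 0.02998% ± 0.0104 in control. All miRNA counts together were 1.01% to 1.55% of these read totals in HFD plus L-NAME libraries and 0.980% to 1.85% in control libraries. The groups overlapped under each of these denominators.

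Within the family the members kept a nearly fixed order, miR-30d-5p, miR-30b-5p, miR-30c-5p, miR-30a-5p and miR-30e-5p by falling level. The order from miR-30b-5p down to miR-30e-5p held in 10 of 10 libraries. The top place changed in 1 library: miR-30d-5p exceeded miR-30b-5p in 4 of 5 HFD plus L-NAME libraries and 5 of 5 control libraries, and HFD plus L-NAME 4 was the exception. These 2 neighbours were the closest in relation to their spread, with a ratio of miR-30d-5p to miR-30b-5p of 1.45 ± 0.403 in HFD plus L-NAME and 1.75 ± 0.375 in control. The ratio of miR-30b-5p to miR-30c-5p was 1.44 ± 0.192 in HFD plus L-NAME and 1.41 ± 0.133 in control, and that of miR-30c-5p to miR-30a-5p 1.95 ± 0.284 in HFD plus L-NAME and 2.02 ± 0.339 in control. The widest step was the last, since miR-30a-5p stood 11.0 ± 4.18 times above miR-30e-5p in HFD plus L-NAME and 16.3 ± 5.73 times in control (SD, n = 5 each). Among all miRNAs the most abundant members ranked 25 (miR-30d-5p) and 26 (miR-30b-5p), against 108 for miR-30e-5p.

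**Figure D1:**
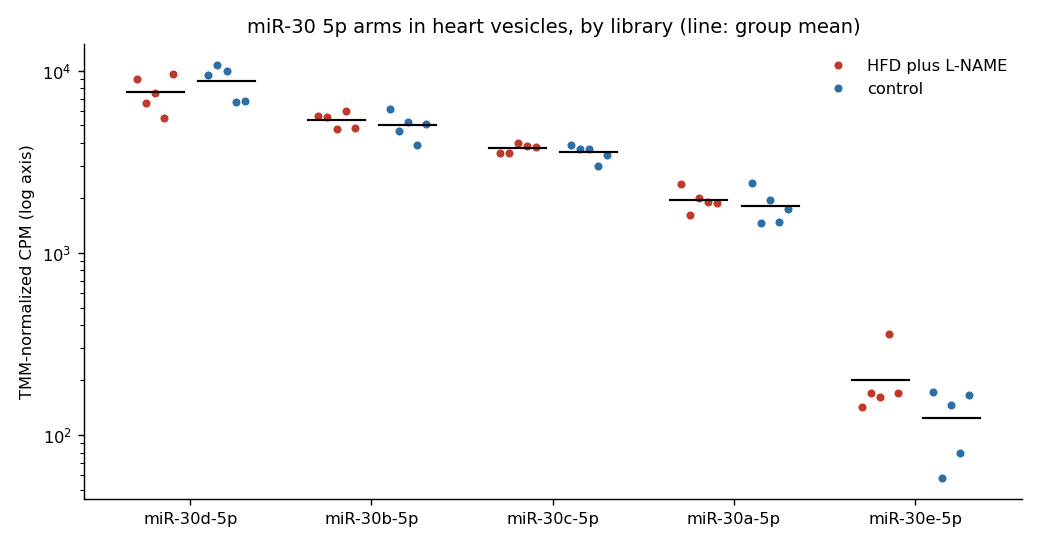
Levels of the 5 miR-30 5p arms in each library (TMM-normalized CPM, log axis), with HFD plus L-NAME left of control and a line at each group mean. The groups overlap for every member, and 1 HFD plus L-NAME library stands at 358 CPM of miR-30e-5p while the other 4 lie between 143 and 170 CPM.

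Between the groups, 0 of the 5 members were called by edgeR's quasi-likelihood test at an adjusted p of 0.05, and 0 of 177 miRNAs were called in all (0%). At an unadjusted p under 0.05 there were 0 of 5 members, where 28 of 177 tested miRNAs (15.8%) had one. For 0 of 5 members did the groups separate fully in CPM, as they did for 7 of 177 (3.95%). Of the members 4 had higher and 1 had lower values in HFD plus L-NAME, against 86 and 91 of all tested miRNAs, but scaled to the recovered read totals 1 was higher and 4 were lower. The median log2 fold change was 0.09 over the members and -0.02 over all tested, and the read totals shifted the median of all tested to -0.37. The directions below hold relative to the other miRNAs.

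The highest member, miR-30d-5p, was the one whose mean was lower in the HFD plus L-NAME libraries. HFD plus L-NAME libraries 1 to 5 held 8993, 6621, 7493, 5527 and 9542 CPM of it. Control libraries 1 to 5 held 9452, 10780, 9975, 6713 and 6771 CPM. The lowest value was in HFD plus L-NAME and the 2 highest in control, but the groups overlapped widely, since control 4 and control 5 were near HFD plus L-NAME 2. The log2 fold change was -0.19 ± 0.20 (SE, 95% interval -0.63 to 0.24, edgeR adjusted p = 0.760). With single libraries left out it ranged from -0.33 (without HFD plus L-NAME 1) to -0.03 (without control 3), and it was -0.06 without HFD plus L-NAME 4 and -0.08 without control 2.

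Its chromosome 15 neighbour miR-30b-5p went the other way. HFD plus L-NAME libraries 1 to 5 held 5607, 5539, 4755, 6031 and 4866 CPM. Control libraries 1 to 5 held 6184, 4685, 5242, 3920 and 5125 CPM. Control held both the highest and the lowest library. The log2 fold change was 0.09 ± 0.16 (SE, 95% interval -0.26 to 0.44, edgeR adjusted p = 0.845), and without HFD plus L-NAME 1 it was close to 0.

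The member made from both chromosomes 1 and 4, miR-30c-5p, was the steadiest. HFD plus L-NAME libraries 1 to 5 held 3509, 3544, 3992, 3843 and 3832 CPM. Control libraries 1 to 5 held 3909, 3726, 3725, 3012 and 3438 CPM. Its coefficient of variation (SD over mean) was 5.57% in HFD plus L-NAME and 9.85% in control. Tested miRNAs within 2-fold of its level had a median of 21.8% (14 miRNAs, 0 with a smaller value) in HFD plus L-NAME and 23.8% (14 miRNAs, 1 with a smaller value) in control. The log2 fold change was 0.07 ± 0.15 (SE, 95% interval -0.24 to 0.39, edgeR adjusted p = 0.876).

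For miR-30a-5p, which comes from chromosome 1 alone, HFD plus L-NAME libraries 1 to 5 held 2401, 1606, 1998, 1903 and 1867 CPM. Control libraries 1 to 5 held 2407, 1456, 1948, 1482 and 1740 CPM. Library 1 stood highest in each group, apart from the other 4, and the ranges nearly coincided. The log2 fold change was 0.11 ± 0.19 (SE, 95% interval -0.28 to 0.51, edgeR adjusted p = 0.821), and it changed sign without HFD plus L-NAME 1, at -0.05 (adjusted p = 0.985).

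The scarcest member, miR-30e-5p, had the largest fold change of the 5 and rests on few counts. There were 42, 42, 49, 118 and 42 counts in HFD plus L-NAME libraries 1 to 5, or 143, 170, 161, 358 and 170 CPM. In control libraries 1 to 5 there were 74, 24, 41, 29 and 41 counts, or 173, 58.0, 146, 80.05 and 166 CPM. HFD plus L-NAME 4 stood above all others, control 2 and control 4 stood below all others, and the remaining 7 libraries of both groups lay together. The log2 fold change was 0.70 ± 0.36 (SE, 95% interval -0.08 to 1.47, edgeR adjusted p = 0.398). Without HFD plus L-NAME 4 it was 0.42 (adjusted p = 0.561). The other arm of the same precursor was not set apart in HFD plus L-NAME 4, at 795 CPM of miR-30e-3p against 570 to 770 CPM in the other 4 libraries of that group.

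**Figure D2:**
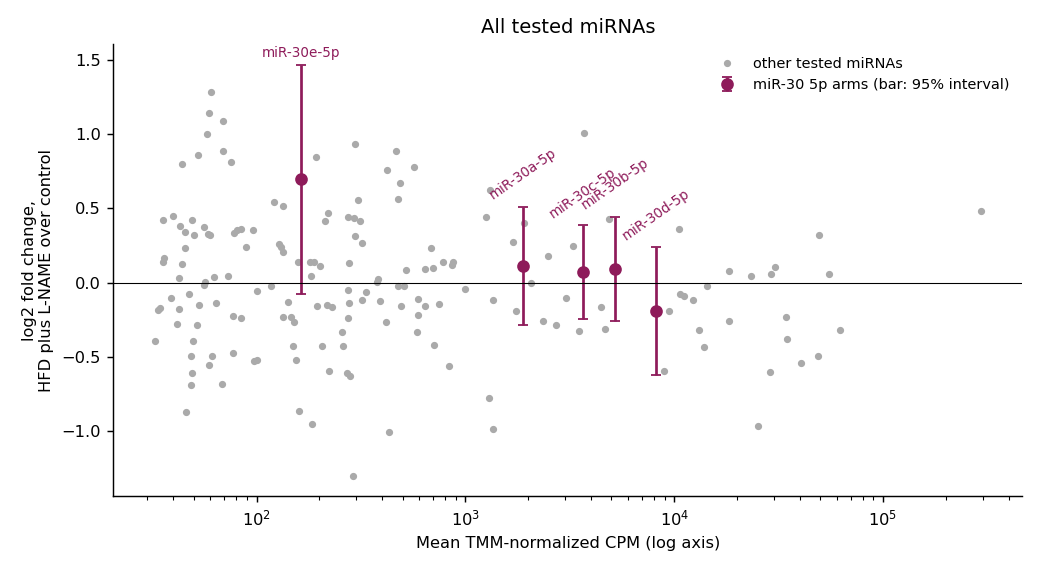
Log2 fold change of HFD plus L-NAME over control against mean level (TMM-normalized CPM, log axis) for the 177 tested miRNAs, with 95% intervals for the miR-30 5p arms. The intervals of all 5 arms include 0, and miR-30e-5p at 0.70 has the widest.

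In composition, miR-30d-5p made up 40.1% ± 5.98 of the family's counts in HFD plus L-NAME and 45.1% ± 4.86 in control (SD, n = 5 each), a difference of -5.02 points. By library it was 43.5%, 37.9%, 40.7%, 31.3% and 47.1% in HFD plus L-NAME 1 to 5, and 42.7%, 52.1%, 47.4%, 44.1% and 39.3% in control 1 to 5. The difference was -2.82 points without HFD plus L-NAME 4 and -3.29 points without control 2. The share of miR-30b-5p was 28.6% ± 4.22 in HFD plus L-NAME and 26.2% ± 2.74 in control, and the difference of 2.36 points was 0.969 without HFD plus L-NAME 4 and 1.47 without control 2. For miR-30c-5p the shares were 19.9% ± 2.02 in HFD plus L-NAME and 18.6% ± 1.15 in control, and for miR-30a-5p 10.3% ± 1.09 in HFD plus L-NAME and 9.40% ± 1.45 in control. The remaining 1.08% ± 0.538 in HFD plus L-NAME and 0.649% ± 0.260 in control was miR-30e-5p, with 2.03% in HFD plus L-NAME 4 and 0.694% to 0.974% in the rest of that group. Without HFD plus L-NAME 4 the difference of 0.433 points in miR-30e-5p was 0.196. Shares are parts of 1 total, so a lower share of miR-30d-5p goes with higher shares elsewhere, and the groups overlapped for every member.

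**Figure D3:**
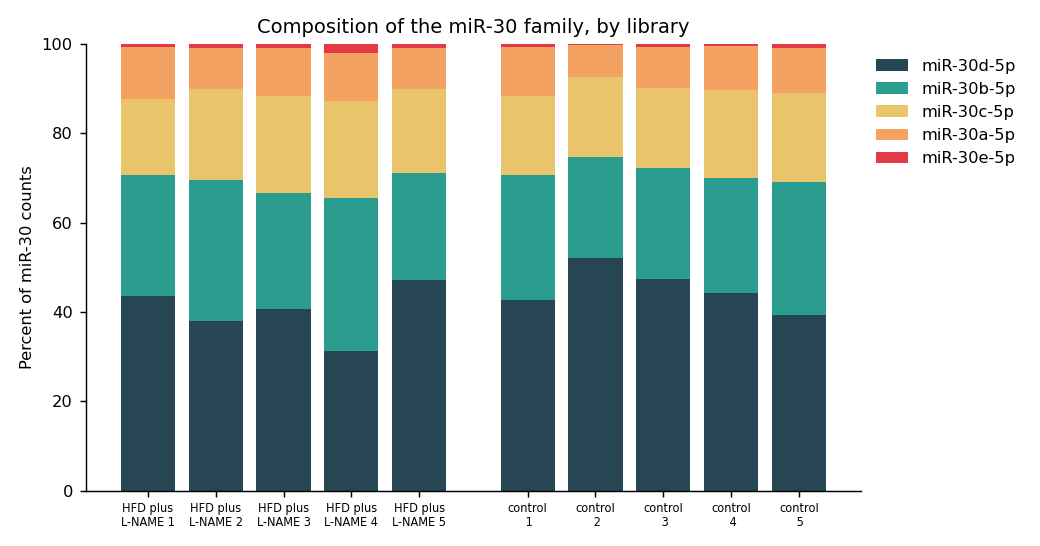
Percent of miR-30 counts held by each member in every library, HFD plus L-NAME on the left and control on the right. The share of miR-30d-5p is smallest in HFD plus L-NAME 4, at 31.3%, and largest in control 2, at 52.1%.

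Members that share a precursor cluster were then set against each other within each library, which removes the scaling between libraries. On the log2 scale miR-30b-5p over miR-30d-5p was -0.49 ± 0.43 in HFD plus L-NAME and -0.78 ± 0.30 in control (SD, n = 5 each), a difference of 0.30 by an exact two-sided permutation test (p = 0.254, adjusted over 57 pairs of neighbouring miRNAs 0.496). The ratio ran from -0.97 to 0.13 in HFD plus L-NAME libraries and from -1.20 to -0.40 in control libraries, so the groups overlapped, and the difference was 0.14 without HFD plus L-NAME 4 and 0.19 without control 2. For miR-30e-5p over miR-30c-5p, the pair within Nfyc, it was -4.29 ± 0.50 in HFD plus L-NAME and -4.94 ± 0.67 in control, a difference of 0.64 (exact permutation p = 0.143, adjusted 0.362). That ratio was -3.42 in HFD plus L-NAME 4 and -4.62 to -4.36 in the other 4 libraries of the group, and the difference was 0.42 without HFD plus L-NAME 4 and 0.38 without control 2. Some of the miR-30c-5p counts in it come from chromosome 1. Of the 57 pairs, 0 passed the adjusted exact test (0%) and 1 separated the groups fully (1.75%), and 0 of these 2 miR-30 pairs did either. The precursors of miR-30a-5p and miR-30c-5p on chromosome 1 lie farther apart than the 10000 bases set for neighbours, so their ratio has no adjusted p. It was -0.95 ± 0.23 in HFD plus L-NAME and -0.999 ± 0.24 in control (exact permutation p = 0.770, n = 5 each).

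Several of the correlations between members changed when the 2 libraries farthest from a member's median were left out. Over the 10 libraries, Pearson's r of log2 CPM was -0.04 between miR-30b-5p and miR-30d-5p (Spearman's rho -0.21), 0.44 between miR-30e-5p and miR-30c-5p (rho 0.47) and 0.48 between miR-30a-5p and miR-30c-5p (rho 0.49). Among members from different chromosomes, it was 0.71 between miR-30b-5p and miR-30e-5p (rho 0.71), 0.67 between miR-30b-5p and miR-30a-5p (rho 0.66) and -0.52 between miR-30e-5p and miR-30d-5p (rho -0.47). Without the 2 libraries farthest from the median of miR-30e-5p, r with miR-30e-5p was 0.31 for miR-30d-5p, 0.81 for miR-30c-5p and 0.77 for miR-30b-5p. Between miR-30e-5p and miR-30c-5p it was only 0.23 without the 2 libraries farthest for miR-30c-5p. For miR-30b-5p and miR-30e-5p it was 0.71 without the 2 libraries farthest for miR-30b-5p, so this r moved little. Between miR-30b-5p and miR-30d-5p it was -0.62 without the 2 libraries farthest for miR-30b-5p and 0.44 without those farthest for miR-30d-5p. Between miR-30a-5p and miR-30c-5p it was 0.55 without the 2 farthest for miR-30a-5p and 0.14 without those farthest for miR-30c-5p, and between miR-30b-5p and miR-30a-5p 0.36 without the 2 farthest for miR-30b-5p and 0.53 without those farthest for miR-30a-5p. No order between neighbouring and distant precursors is read from these values. These are descriptions over 10 libraries of 2 groups that share 1 normalization.

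The arms of the precursors were used very differently. The 5p arm held nearly all counts of miR-30b, miR-30c and miR-30d, with pooled ratios of 5p to 3p counts of 348 in HFD plus L-NAME and 302 in control for miR-30b, and of 268 in HFD plus L-NAME and 237 in control for miR-30d. The counts of miR-30c-5p were 254 times those of miR-30c-1-3p in HFD plus L-NAME and 230 times in control. They were 152 times those of miR-30c-2-3p in HFD plus L-NAME and 102 times in control. The 5p counts here come from both loci, so neither value is the arm ratio of a single precursor. These 3p arms rest on few counts, such as 22 in HFD plus L-NAME and 29 in control for miR-30b-3p. For miR-30c-1-3p there were 21 in HFD plus L-NAME and 27 in control. Among HFD plus L-NAME libraries with a count of it, the ratio ran from 115 to 1213. For miR-30a the 5p arm led by less, with a ratio of 3.82 in HFD plus L-NAME and 3.49 in control. For miR-30e the 3p arm led, with 5p over 3p of 0.288 in HFD plus L-NAME and 0.152 in control. Of 21 precursor names with both arms tested, 12 had more 5p than 3p, and miR-30a ranked 8 and miR-30e ranked 14 by that ratio.

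The 3p arms of miR-30a and miR-30e were closer in level than their 5p arms, with miR-30e-3p the higher one in every library. By library the ratio of miR-30e-3p to miR-30a-3p ran from 1.13 to 1.77 in HFD plus L-NAME and from 1.32 to 1.94 in control. In HFD plus L-NAME, miR-30a-3p stood at 501 ± 143 CPM and miR-30e-3p at 709 ± 90.5 CPM. In control, miR-30a-3p stood at 511 ± 224 CPM and miR-30e-3p at 782 ± 260.9 CPM (SD, n = 5 each). Thus miR-30e supplied 59.2% ± 4.56 of the summed 3p counts of both precursors in HFD plus L-NAME and 61.4% ± 4.15 in control, but 9.37% ± 3.89 of their summed 5p counts in HFD plus L-NAME and 6.27% ± 1.87 in control. Summed over both precursors, the ratio of 5p to 3p was 1.82 ± 0.369 in HFD plus L-NAME and 1.60 ± 0.471 in control. The arms of these precursors differ by 1 base each, and how reads matching both were counted is not given in the sources used here; its part in the ratios was not tested.

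**Figure D4:**
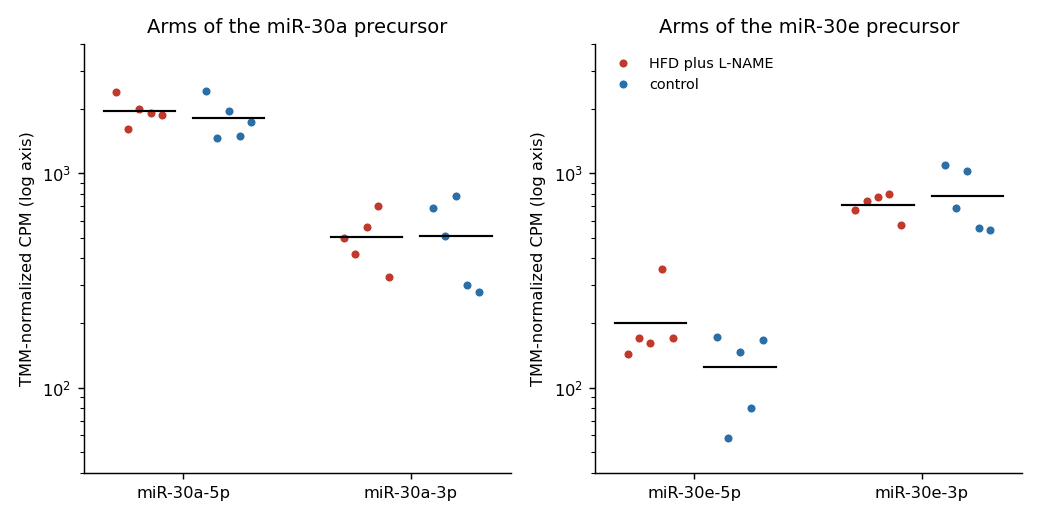
Levels of the 5p and 3p arms of the miR-30a and miR-30e precursors in each library (TMM-normalized CPM, log axis), HFD plus L-NAME left of control, with a line at each group mean. The 5p arm is the higher one for miR-30a and the 3p arm for miR-30e in both groups.

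Between groups, the arm ratio of miR-30e differed most among miR-30a, miR-30d and miR-30e, the 3 precursors whose 3p arms passed the filter. In HFD plus L-NAME libraries 1 to 5, 5p over 3p was 0.213, 0.231, 0.209, 0.450 and 0.298. In control libraries 1 to 5 it was 0.158, 0.0839, 0.142, 0.144 and 0.306. All 5 HFD plus L-NAME libraries lay above 4 of the control libraries, and control 5 lay within the range of HFD plus L-NAME. The mean log2 ratio was -1.89 ± 0.46 in HFD plus L-NAME and -2.70 ± 0.66 in control (SD, n = 5 each), a difference of 0.81 (exact permutation p = 0.0476, adjusted over 21 precursor names 0.300), which does not pass the adjusted threshold. The difference was 0.62 without HFD plus L-NAME 4, 0.59 without control 2 and 1.06 without control 5. By the same test miR-30a differed by 0.08 (exact permutation p = 0.794, adjusted 0.904) and miR-30d by 0.15 (exact permutation p = 0.524, adjusted 0.786). Of the 21 names, 3 had an unadjusted exact permutation p under 0.05, with miR-30e among them. Of the same 21, 0 passed the adjusted test (0%) and 0 separated the groups fully (0%). As single miRNAs, the tested 3p arms had log2 fold changes of -0.03 ± 0.31 for miR-30a-3p, -0.14 ± 0.23 for miR-30e-3p and -0.39 ± 0.39 for miR-30d-3p (SE), with 0 of 3 called by edgeR.

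The miRNAs most like the family sum over the 10 libraries, by Pearson's r of log2 CPM among 169 tested miRNAs outside the family, were miR-24-2-5p (0.82), miR-378c (0.73), miR-27b-3p (0.69), miR-151-3p (0.57) and miR-374b-5p (0.53), where the median r was -0.08. Without the 2 libraries farthest from the median of the sum, these were 0.60, 0.60, 0.22, 0.49 and 0.36 in the same order. At the other end were miR-10a-5p (-0.75), miR-10b-5p (-0.72) and miR-320-3p (-0.68). Without the same 2 libraries these were -0.61, -0.52 and -0.55 in that order. Both ends were picked by r among 169 miRNAs, so large values were favoured by the choice. For single members, the partner was picked as the highest r among 176 tested miRNAs, so a high value was favoured by the choice. The closest partner of miR-30e-5p and also of miR-30b-5p was miR-126a-5p, an arm of the endothelial miR-126 precursor, with r of 0.93 (rho 0.83) and 0.86 (rho 0.79). Centred on the group means these were 0.90 and 0.88, and without the 2 farthest libraries 0.87 and 0.77. HFD plus L-NAME 4, the highest library for both members within its group, also held the most miR-126a-5p, 2935 CPM against 1813 to 2090 CPM in the rest of the group. Control 2 and control 4, the lowest for miR-30e-5p, held 1178 and 1159 CPM, the lowest of all libraries. The other endothelial markers did not share the direction of miR-126a-5p between groups. The log2 fold change was 0.40 ± 0.23 for miR-126a-5p and -0.32 ± 0.18 for the more abundant arm miR-126a-3p (SE). It was -0.05 ± 0.27 for miR-221-3p and -0.69 ± 0.42 for miR-222-3p. A link of miR-30 to endothelial vesicles was not tested. The closest partners of the other members were miR-24-2-5p for miR-30c-5p (0.85), miR-24-3p for miR-30a-5p (0.81) and miR-378c for miR-30d-5p (0.72), with rho of 0.60, 0.85 and 0.70. Without the 2 libraries farthest from each member's median, r was 0.50 for miR-30c-5p, 0.70 for miR-30a-5p and 0.60 for miR-30d-5p.

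**Figure D5:**
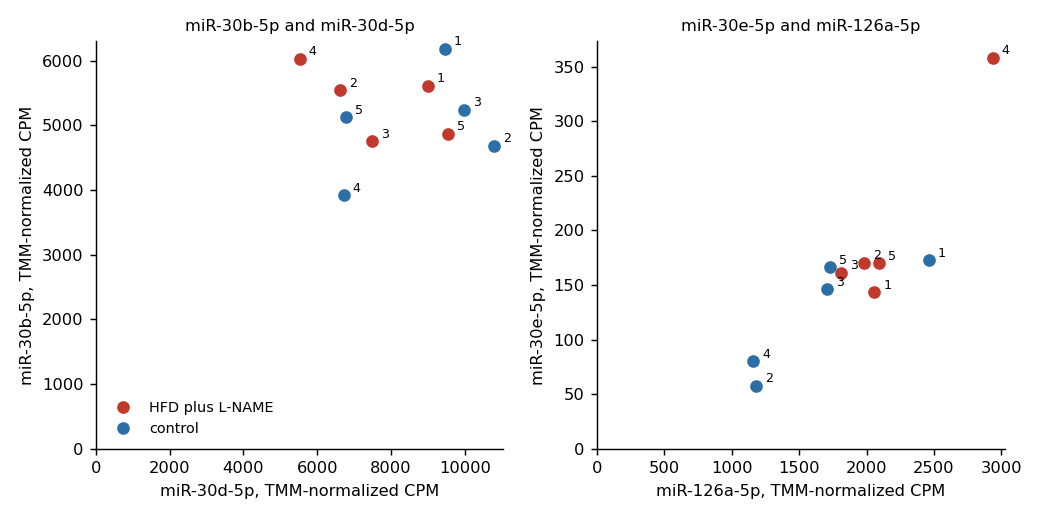
Levels of miR-30b-5p against miR-30d-5p and of miR-30e-5p against miR-126a-5p (TMM-normalized CPM, linear axes from 0), each point a library with its number, HFD plus L-NAME and control in 2 colours. The chromosome 15 neighbours have an r of -0.04. It was -0.62 or 0.44 without the 2 libraries farthest for miR-30b-5p or for miR-30d-5p. For miR-30e-5p and miR-126a-5p r is 0.93, picked as the highest for miR-30e-5p among 176 miRNAs.

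Other miRNAs known to repress Ctgf were read from the same fit. Of 5 listed, 4 were in the table and 3 were tested, and 0 of 3 were called by edgeR. The log2 fold changes were -0.19 ± 0.23 for miR-133a-3p, 0.24 ± 0.59 for miR-133b-3p and 0.05 ± 0.39 for miR-19b-3p (SE). The most abundant of them, miR-133a-3p, a muscle miRNA, stood at 8774 ± 2856 CPM in HFD plus L-NAME and 10014 ± 2103 CPM in control (SD, n = 5 each), close to the level of miR-30d-5p.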

How the data were processed

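Counts per mature miRNA were used as deposited by the authors, 1 column per library. A second deposited value has no unit in its header and was assumed to be RPM made by the authors: dividing count by value gave 1 total per library for 100% of values, 21563706 to 27493792 reads. Per the submitters' processing notes, the genome was GRCm38.p6. The sources used here name no aligner or counting tool and do not say how reads matching several miRNAs were counted. Libraries were made by adaptor ligation (MGIEasy kit, per the labels' protocols). Molecular identifiers are not mentioned, so the exact binomial intervals of the family share cover counting error only. The intervals of the fold changes come from the edgeR fit and include the spread among libraries.

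Groups follow the treatment label, and replicate numbers, given by accession, carry no pairing. Separate mice per library are not stated, so p-values reflect spread among these libraries, which may be technical. Chi-square per degree of freedom was 20.2 to 130 over 20 pairs of libraries within groups and 27.7 to 214 over 25 pairs across groups, so none was a copy.

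The 177 miRNAs left by edgeR's default filter were tested together by the robust quasi-likelihood test of edgeR 4.0.16 (TMM; R 4.3.3), Benjamini-Hochberg adjusted, at 0.05. The script was tested on simulated data. Log2 CPM used a prior count of 2 and within-library ratios a pseudocount of 0.5. Ratios were compared by exact two-sided permutation over 252 arrangements (SciPy 1.17.1, smallest p 0.00794). DESeq2 1.42.0 and limma 3.58.1 were alternatives. The family sum and the composition were described without a test. Precursors came from GENCODE M21. The members, lists, tests and naming rule were chosen with earlier results of these data known. The rule named the members, their 3p arms, miRNAs of the same seed, the 5 highest and 3 lowest correlations with the family sum outside the family, and the 2 highest for each member, of which the text gives the first.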

Additional observations from a re-analysis of the deposited data

Results flagged for a closer look

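Among 40 groups of 5 values tested, 4 had 1 library far from the rest (Dixon's test, critical value 0.71), where chance flags about 1 in 20 groups. In 3 of them the library was HFD plus L-NAME 4 and the measures share the same counts: miR-30e-5p stood at 358 CPM against 143 to 170 CPM in the other 4 libraries of the group, at 2.03% of the family against 0.694% to 0.974%, and at a log2 ratio to miR-30c-5p of -3.42 against -4.62 to -4.36. The fourth was the log2 ratio of miR-30a-5p to miR-30c-5p in HFD plus L-NAME 1, at -0.55 against -1.14 to -0.998.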

How the results depend on the processing

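Of the 5 members 0 were called by edgeR with any library left out, with other scalings, without miR-1a-3p or without the filter, nor by DESeq2 or limma, where DESeq2 gave no adjusted p for miR-30e-5p on the filtered table. Among all miRNAs DESeq2 called 11 on the filtered table and 0 on the unfiltered one, the latter chosen after seeing the data, and edgeR called 1 without the filter, with 68 at an unadjusted p under 0.05. With libraries left out, edgeR called 0 to 1, and 17 to 34 had an unadjusted p under 0.05.

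Scaled to read totals, 1 member was higher in HFD plus L-NAME in place of 4. The log2 fold changes were then -0.25 for miR-30a-5p, -0.26 for miR-30b-5p, -0.30 for miR-30c-5p, -0.61 for miR-30d-5p and 0.43 for miR-30e-5p, where the median of all tested miRNAs was -0.37, and the log2 ratio of the family share was -0.41, against -0.04 over miRNA counts. Without miR-1a-3p the median of all tested miRNAs was 0.12, and the share's log2 ratio was 0.16, within the spread between libraries.

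Leaving out each library, the fold change of miR-30a-5p ranged from -0.046 to 0.26, its log2 ratio to miR-30c-5p from -0.049 to 0.13 (-0.031 by group medians) and its arm ratio from -0.068 to 0.26, so these had no stable direction. The fold change ranged from 0.0019 to 0.23 for miR-30b-5p, 0.012 to 0.21 for miR-30c-5p, -0.33 to -0.029 for miR-30d-5p and 0.42 to 0.89 for miR-30e-5p. The log2 ratio of the family share ranged from -0.11 to 0.048. The arm ratio of miR-30e ranged from 0.59 to 1.06, with an adjusted exact permutation p of 0.167 to 0.467. The cause of these shifts was not tested. No paired analysis was possible because the labels number no replicates. Counts of 24 to 118 per library limit miR-30e-5p.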
